A study of Mus musculus with 2 samples.

Results

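The genes described here encode the machinery of DNA replication and cell division. They were fixed by name as a list of 50 genes: 24 of S phase, 23 of G2 and M phase, and the 3 D-type cyclins of G1, which belong to neither phase group. The list stands against 12393 genes that have a probe set of their own on the array. A probe set, the unit the array reports, is a group of short probes read together; only probe sets annotated to 1 gene symbol were used. Of the 50 genes, 48 had such a probe set and 46 were measured, meaning that at least 1 probe set lay above the floor of dim signal in both clones. Ccnb1 and Gins2 had none, and Tyms and Cenpe had only probe sets that were dim in at least 1 clone.

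The cells were LM8, an established mouse osteosarcoma line, and the study set 2 stably transfected clones side by side with 1 Affymetrix array each. The hPHD4 clone carried the full-length cDNA of human PHD4, a prolyl hydroxylase of the endoplasmic reticulum membrane related to the enzymes that target hypoxia-inducible factors, in pcDNA3.1. The control clone carried that vector without an insert. Both were kept in 0.5 mg/ml G418, the drug that selects for the vector, and both are cultures of a tumour line, so neither represents normal bone cells. Each group is 1 clone, so the effect of hPHD4 and any other difference between 2 clones cannot be told apart. P4htm, the mouse gene for PHD4, had 0 probe sets of its own, and the probes were designed for mouse genes and not for the human transgene, so the labels were not checked against it.

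With 1 array per clone there is no replicate check, no test and no p-value. The values are log2 signals, and each difference is a log2 ratio, the hPHD4 clone minus the control clone, averaged over the measured probe sets of a gene. The only error to be had is how far probe sets for a single gene disagree: the SD of their log2 ratios, pooled over the 2800 genes with several probe sets and called the probe set SD here. It was taken separately in 3 classes of brightness, each with as many of the measured genes as the others. It was 0.40 in the dimmest, 0.37 in the middle and 0.28 in the brightest class, which held 38 of the 46 measured genes. This SD covers the error of single probe sets and not that of cultures, clones or arrays. A mean over several probe sets was held to the same SD. That is wider than the SE of the mean, the SD over the square root of the number of probe sets, which has the same limits. Mcm3, Mcm4, Mcm6, Prim1, Rfc3, E2f1 and Ccnd1 lay within the SD but beyond that SE. The median linear signal was 135 on the hPHD4 array and 122 on the control array. The osteoblast lineage genes Col1a1, Col1a2, Sparc, Alpl, Sp7 and Ibsp were measured in both clones, while Runx2, Bglap and Spp1 had no probe set of their own. Of the markers of other cell types, 0 of 6 epithelial, 1 of 4 endothelial and 3 of 6 leukocyte genes were measured, all at log2 signals between 6.17 and 6.82, near the floors of 6.34 (hPHD4 clone) and 6.08 (control clone).

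Cells copy their genome once per cycle. In G1, Cdc6 and Cdt1 load the MCM2-7 helicase onto origins; in S phase the helicase unwinds DNA while polymerases, the sliding clamp PCNA and the nucleotide-making enzymes copy it. Many genes of this step are switched on by E2F factors once cyclin D and cyclin E kinases inactivate the retinoblastoma protein. Genes of G2 and M phase, which build the spindle and separate chromosomes, are instead timed through a promoter element called CHR, often next to CCAAT boxes bound by NF-Y. Tumour cell lines in culture cycle continuously and express both sets.

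The promoters of the list differ by phase in these letters, a feature that the choice of genes did not use. Of the 50 genes, 40 matched the RefSeq promoter windows of build GRCm38.p6 by symbol, with 45 windows that run from 250 bases before to 50 after a start site. An E2F site was taken as TTTCGCGC, TTTGGCGC, TTTCCCGC or TTTGCCGC, a CHR as TTTGAA and a CCAAT box as CCAAT, each on both strands, with overlapping matches counted separately. E2F letters were in 9 of 24 windows of S phase genes (37.5%) and in 1 of 19 of G2/M genes (5.26%), against 2.26% of all 32851 windows. CHR letters were in 2 windows of S phase genes (8.33%) and in 13 of G2/M genes (68.4%), against 17.9% of all windows. CCAAT was in 50% and 89.5% of them, against 37.4%. A match describes the letters alone, and a missing match says nothing about the factor.

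The stretches below give the 160 bases before the start site of 6 genes, from RefSeq, 5′ to 3′ on the strand of the gene, with the matched letters in capitals. Mcm5 and Mcm6 show the E2F type, Cdk1 holds all 3 elements, and Aurka, Plk1 and Kif11 are G2/M genes whose ratios, given further on, lay on different sides of 0.
Mcm5, chr8:75109349-75109508, plus strand: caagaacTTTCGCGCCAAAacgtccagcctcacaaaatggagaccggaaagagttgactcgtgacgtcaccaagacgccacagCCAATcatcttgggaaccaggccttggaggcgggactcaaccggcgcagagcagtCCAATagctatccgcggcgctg
Mcm6, chr1:128359706-128359865, minus strand: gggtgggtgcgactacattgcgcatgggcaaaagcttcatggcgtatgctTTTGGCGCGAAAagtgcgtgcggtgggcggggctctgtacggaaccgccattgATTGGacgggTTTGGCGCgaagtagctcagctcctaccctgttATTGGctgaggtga
Cdk1, chr10:69352913-69353072, minus strand: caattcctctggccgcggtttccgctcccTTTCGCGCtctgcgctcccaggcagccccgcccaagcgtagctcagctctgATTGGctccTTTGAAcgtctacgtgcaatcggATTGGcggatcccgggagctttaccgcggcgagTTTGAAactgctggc
Aurka, chr2:172370571-172370730, minus strand: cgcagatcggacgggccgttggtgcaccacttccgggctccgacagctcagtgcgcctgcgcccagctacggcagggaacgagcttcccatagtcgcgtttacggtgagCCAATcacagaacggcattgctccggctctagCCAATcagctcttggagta
Plk1, chr7:122159275-122159434, plus strand: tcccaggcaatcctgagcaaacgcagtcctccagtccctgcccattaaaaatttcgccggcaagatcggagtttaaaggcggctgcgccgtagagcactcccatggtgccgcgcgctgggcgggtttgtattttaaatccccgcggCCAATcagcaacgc
Kif11, chr19:37376222-37376381, plus strand: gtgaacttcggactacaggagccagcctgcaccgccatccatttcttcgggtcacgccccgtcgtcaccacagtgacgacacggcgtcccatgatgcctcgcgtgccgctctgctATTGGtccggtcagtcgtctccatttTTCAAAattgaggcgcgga
In Mcm5 and Mcm6 overlapping E2F words lie on opposite strands. The CHR letters of Aurka and Plk1 begin 33 and 31 bases into the transcribed part and are outside the stretches shown. Genes with and without each element overlapped in their ratios. The median log2 ratio was −0.10 for the 10 measured genes with an E2F site and −0.06 for the 27 without. It was −0.08 for both the 15 with and the 22 without a CHR. For CCAAT it was −0.10 for the 27 with it, from −0.67 to 0.69, and 0.08 for the 10 without, from −0.30 to 0.49.

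Across the whole list, signals in the hPHD4 clone stayed close to those in the control clone. Of the 46 measured genes 19 had a ratio above 0 and 27 below. The share above 0 was 41.3%, against 53.6% of all 7452 measured genes and 46.1% of the brightest class. Within 0.32 of 0 on the log2 scale lay 34 genes (73.9%, against 61.5% and 70.2%). Only Kif11 was at least 1.5-fold higher and only Ccnd3 at least 1.5-fold lower, which is 2.17% of the 46 each way. Among all measured genes 8.94% were that much higher and 5.22% lower; in the brightest class the shares were 3.38% and 4.43%. The ratio was above 0 by more than the probe set SD for 7 genes (15.2%) and below 0 by more than it for 6 (13.0%). The background for that rule was 20.4% above and 15.1% below over all measured genes, and 16.0% and 20.1% in the brightest class. These shares are close to those of bright genes in general. Of the 88 probe sets of the list 78 were measured, with 38 above 0. Past 1.5-fold lay 5 on the higher and 3 on the lower side. Probe sets of a gene shared a sign in 13 of the 20 genes that had several. These probe set counts were not set against all measured probe sets of the array, so they cannot be called typical or unusual. In whole cultures, a difference in the share of dividing cells and a difference in RNA per dividing cell cannot be told apart.

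**Figure D1:**
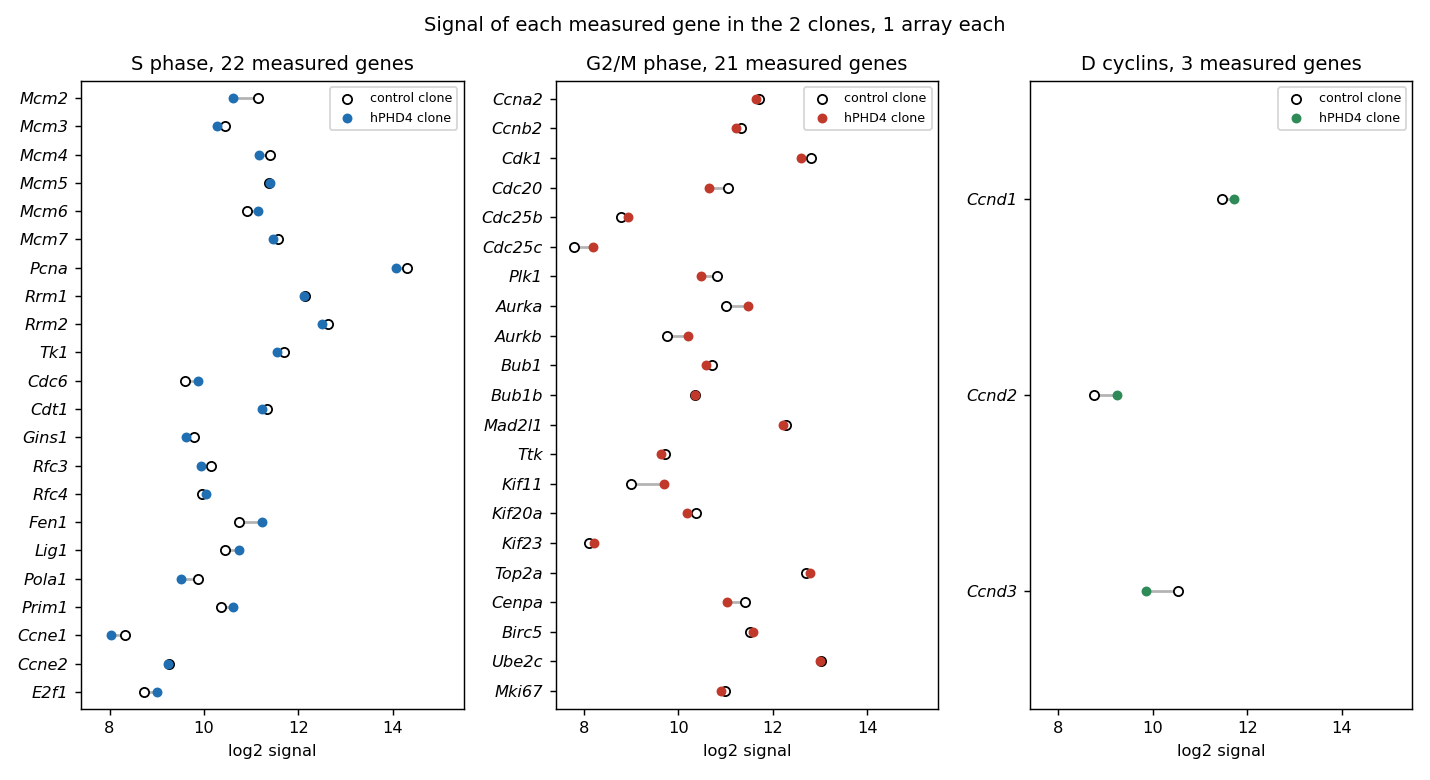
Log2 signal (x axis) of each of the 46 measured genes (rows), averaged over its measured probe sets, in the control clone (open) and the hPHD4 clone (filled), 1 array each. Most pairs of points nearly coincide, with Kif11 farthest to the right and Ccnd3 farthest to the left of its control; positions of different genes on the axis are not comparable, because probe sets differ in response.

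S phase genes leaned slightly below 0. Their median log2 ratio was −0.10 over 22 of 24 genes, from −0.52 to 0.49, against a median of 0.03 for all measured genes and −0.03 for the brightest class. In total 14 of the 22 genes were below 0 and 0 passed 1.5-fold. Among all measured genes 8.94% were that much higher and 5.22% lower, and in the brightest class 3.38% and 4.43%. The share above 0 was 36.4%, against 53.6% of all measured genes and 46.1% of the brightest class. With the brightest probe set per gene the median was −0.014, and without probe sets of the _x_at and _s_at type, whose probes can match several transcripts, it was −0.0089.

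The MCM2-7 helicase subunits lay on both sides of 0. Mcm2 had log2 signals of 11.14 and 11.10 (hPHD4 and control) on one probe set and 10.10 and 11.19 on the other, of the _s_at type. Its ratios were thus 0.04 and −1.09, with an SD of 0.80 where the probe set SD was 0.28, so the gene mean of −0.52 rests on 1 probe set. It was 0.04 with the brightest probe set alone. Mcm3 had 5 probe sets between −0.40 and 0.16, with a mean of −0.16. Mcm4 was at −0.22, Mcm5 at 0.01, Mcm6 at 0.24 and Mcm7, with 4 probe sets between −0.30 and 0.23, at −0.10. All but Mcm2 were within the SD of 0.28. The loading factors differed in sign but also stayed within it: Cdc6 had signals of 9.88 and 9.61, a ratio of 0.27, and Cdt1 a ratio of −0.11. Gins1, of the GINS complex that joins the helicase at the fork, was at −0.16.

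Of the genes that supply nucleotides, Rrm1, Rrm2 and Tk1 were within the probe set SD. Outside the list, Dck, described further on, was at −0.95, and Dut was at 0.01 with probe sets that disagreed at −0.57 and 0.59. Rrm1 and Rrm2 encode the subunits of ribonucleotide reductase, which makes deoxynucleotides. Both Rrm1 probe sets were level between the clones, at ratios of 0.00 and −0.02 with signals near 12.1, and the 3 of Rrm2 lay between −0.24 and −0.09. Tk1, the thymidine kinase of S phase, had signals of 11.54 and 11.70, a ratio of −0.16. Tyms, encoding thymidylate synthase, had 3 probe sets of its own, each dim in at least 1 clone. A further probe set, annotated to Tyms together with the pseudogene Tyms-ps, had log2 signals of 10.30 in the hPHD4 clone against 10.81 in the control clone, a ratio of −0.51. The signals of the gene and its copy cannot be separated there.

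Among fork proteins, Fen1 and Lig1 lay above 0 and Pcna below it. Fen1, the flap endonuclease that trims Okazaki fragments, had signals of 10.93 and 10.52 on one probe set and 11.51 and 10.95 on the other. Both probe sets were higher in the hPHD4 clone, and the gene ratio was 0.49 (1.40-fold), the highest of S phase. Lig1, the ligase that seals those fragments, had signals of 10.73 and 10.43, a ratio of 0.30 that only just exceeds the SD of 0.28. Pcna, the sliding clamp, had signals of 14.06 and 14.30, a ratio of −0.23 and within the SD.

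Subunits of the polymerase that starts each fragment did not go the same way. Pola1, its catalytic subunit, had signals of 9.51 and 9.87, a ratio of −0.36 and beyond the SD. Prim1, the primase subunit that makes the RNA primer, had probe sets at 0.16 and 0.36, with a mean of 0.26. Their partners outside the list were Pola2 at 0.53 and Prim2 at 0.11, the latter with probe sets that disagreed at 0.61 and −0.40. Of replication factor C, which loads the clamp, Rfc3 was at −0.21 and Rfc4 at 0.09; the remaining subunits Rfc1, Rfc2 and Rfc5 lay at −0.68, −0.40 and −0.55. The 3 probe sets of Rfc1 all lay below 0, between −0.75 and −0.55. These partner genes were named for belonging to the same complex, with their values known.

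Regulators of S phase entry stayed within the probe set SD. Ccne1 and Ccne2 encode the E-type cyclins that activate CDK2. Ccne1 had signals of 8.04 and 8.34, a ratio of −0.30 against an SD of 0.37, and Ccne2 was level at −0.01. E2f1, the transcription factor that drives many genes of this group and its own, had probe sets at 0.41 and 0.15, a mean of 0.28 and within the SD of 0.37.

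G2/M phase genes had a median log2 ratio of −0.06 over 21 of 23 genes, from −0.41 to 0.69. Of these, 9 were above 0 and 12 below. At least 1.5-fold higher was 1 (4.76%), against 8.94% of all measured genes and 3.38% of the brightest class. At least that much lower were 0, against 5.22% and 4.43%. The share above 0 was 42.9%, against 53.6% of all measured genes and 46.1% of the brightest class.

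The core mitotic kinase and its cyclins lay slightly below 0, within the probe set SD. Cdk1 had signals of 12.59 and 12.81, a ratio of −0.22; Ccna2, cyclin A2, was at −0.06 with probe sets at 0.09 and −0.22, and Ccnb2, cyclin B2, at −0.12. The phosphatases that switch CDK1 on were above 0 and outside the brightest class: Cdc25b at 0.15 and Cdc25c at 0.41, the latter with signals of 8.20 and 7.79 and an SD of 0.40.

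The mitotic kinases parted. Aurka, the Aurora A kinase of spindle poles, had signals of 11.47 in the hPHD4 clone against 11.02 in the control clone, a ratio of 0.46 (1.37-fold) on 1 probe set. Aurkb, the Aurora B kinase of the chromosomal passenger complex, was at 0.44, with probe sets of 0.20 and 0.68 that both lay above 0. Plk1, the polo-like kinase of mitotic entry, had signals of 10.47 and 10.82, a ratio of −0.34. Aurka and Plk1 thus differed by 0.80 in log2 ratio, each beyond the SD of 0.28 for a single probe set. Birc5, survivin, a partner of Aurora B, was at 0.06, and Incenp, the scaffold of that complex and no member of the list, at 0.29.

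The spindle checkpoint holds the cell in metaphase until every chromosome is attached. Of its genes in the list, Bub1 was at −0.13, Bub1b at 0.00, Mad2l1 at −0.06 and Ttk, the MPS1 kinase, at −0.08, each on 1 measured probe set. All 4 were within the SD. Bub3 and Mad1l1, checkpoint genes outside the list, were above 0 by more than the SD of their brightness class, at 0.35 and 0.43. The probe sets of Bub3 disagreed, at 0.02 and 0.69. Mad1l1 had 1 probe set and is in the dimmest class, whose SD of 0.40 its ratio only just exceeds. The activator that the checkpoint restrains, Cdc20, was lower at −0.41. Its bright probe sets, at signals of 12.16 against 12.36 and 12.22 against 12.45, gave ratios of −0.20 and −0.24, while the dimmest gave −0.81 at signals of 7.55 and 8.36. With the floor raised to the 60th percentile, which drops the dimmest, its ratio was −0.22. Ube2c, the ubiquitin-conjugating enzyme that works with Cdc20, had signals of 13.00 and 13.03, a ratio of −0.03.

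Among the mitotic kinesins, motors that move along microtubules, Kif11 stood out. It encodes the motor that pushes the spindle poles apart. Its 3 probe sets had log2 signals of 9.37, 9.58 and 10.12 in the hPHD4 clone against 8.80, 8.84 and 9.35 in the control clone. Every probe set was higher in the hPHD4 clone, with ratios of 0.57, 0.74 and 0.77, and the gene was 1.61-fold higher, a ratio of 0.69 ± 0.21 (SE from the probe set SD, n = 3 probe sets). Kif20a, a kinesin of the central spindle, was at −0.19, and Kif23, another motor of that structure, at 0.10 with probe sets at −0.19 and 0.39.

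Chromosome proteins and the proliferation marker stayed level except for Cenpa. Top2a, the topoisomerase that disentangles sister chromatids, had signals of 12.79 and 12.70, a ratio of 0.09. Cenpa, the histone H3 variant that marks centromeres, had signals of 11.03 and 11.42, a ratio of −0.39 and beyond the SD. Mki67, encoding the Ki-67 antigen found in cycling cells, had signals of 10.89 and 10.99, a ratio of −0.10. The values of Top2a and Mki67, both widely read as marks of proliferation, were within the SD of 0.28.

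**Figure D2:**
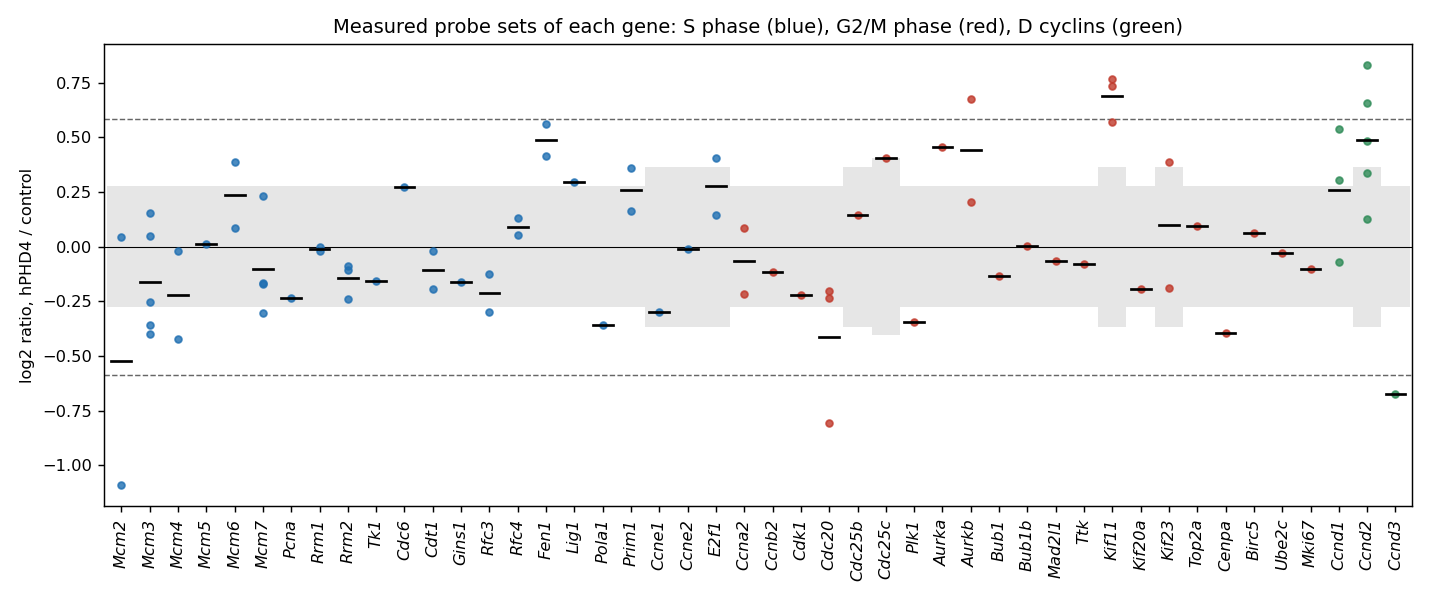
Log2 ratio of every measured probe set (points, y axis) of the 46 measured genes (x axis), with the gene mean as a black bar, the probe set SD of the brightness class of the gene as a grey band around 0, and dashed lines at 1.5-fold. Kif11 lies above and Ccnd3 below the dashed lines; the wide gaps between points of Mcm2 and Cdc20 show where probe sets of 1 gene disagree.

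The D-type cyclins, which activate CDK4 and CDK6 in G1 in response to growth signals, lay on both sides of 0. Ccnd1 had signals of 12.61, 12.20 and 10.36 in the hPHD4 clone against 12.31, 11.66 and 10.43 in the control clone. Its probe sets at 0.30 and 0.54 were higher in the hPHD4 clone while the third, at −0.07, was level, for a mean of 0.26. Ccnd2 was measured on 5 of 7 probe sets, with signals of 10.32, 10.02, 9.61, 8.17 and 8.11 in the hPHD4 clone against 9.49, 9.36, 9.13, 7.83 and 7.98 in the control clone. All 5 were higher in the hPHD4 clone, between 0.13 and 0.83, with a mean of 0.49 ± 0.16 (SE from the probe set SD, n = 5 probe sets; 1.40-fold). Ccnd3 had signals of 9.86 and 10.54 on its only probe set, a ratio of −0.67, 1.59-fold lower in the hPHD4 clone and beyond the SD of 0.28. The ratios of Ccnd2 and Ccnd3 differed by 1.16, and those of Ccnd1 and Ccnd3 by 0.93. The sign of each D cyclin held under all 10 alternatives in scaling, floor and probe set choice. For Ccnd3, with its only probe set, the probe set choice could not change the value. With the median of its chromosome subtracted Ccnd1 was at 0.07 and Ccnd3 at −0.51.

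Of 25 further G1 regulators and CDK inhibitors 19 were measured, with a median of −0.10. Above 0 were 7 (36.8%, against 53.6% of all measured genes). At least 1.5-fold higher were 0, and 1 was that much lower (5.26%, against 5.22% of all measured genes). That gene was Cdkn1a, which encodes p21, the CDK inhibitor induced by p53. Its probe sets had log2 signals of 10.83 and 7.95 in the hPHD4 clone against 11.79 and 8.94 in the control clone. Both were lower in the hPHD4 clone, by ratios of −0.95 and −0.99, and the gene was 1.96-fold lower. The other measured inhibitors were Cdkn1b at −0.11, Cdkn2b at −0.16, Cdkn2c at 0.00 and Cdkn2d at 0.24, while Cdkn1c and Cdkn2a were not measured. E2f6, a repressor of the E2F family, was highest at 0.50, and E2f3 followed at 0.29. Rbl2, encoding the pocket protein p130, was next lowest at −0.32, with probe sets that disagreed at 0.05 and −0.69.

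Of 41 further replication genes 36 were measured, with a median of −0.11. Above 0 were 13 (36.1%, against 53.6% of all measured genes and 46.1% of the brightest class). At least 1.5-fold higher were 0, and 2 were that much lower. In that list 13 genes (36.1%) lay below 0 by more than the probe set SD, against 15.1% of all measured genes and 20.1% of the brightest class. Above 0 by more than it were 2 (5.56%), against 20.4% and 16.0%. Of the 13 genes on the lower side, Orc5, Cdc7, Dbf4, Rfc1, Rfc2, Rfc5, Pole, Dck and Slbp lie on chromosome 5. They are all the measured genes of that list on the chromosome. The median log2 ratio of all measured genes on that chromosome was −0.19, and 67.9% of them were below 0. The share of them below 0 by more than the probe set SD was not computed. Rpa2, Rpa3, Pold1 and Dnmt1 lie on other chromosomes. The shares past 1.5-fold were 0% higher and 5.56% lower, where all measured genes had 8.94% and 5.22%. Dck, the deoxycytidine kinase of the salvage pathway, was lowest at −0.95, with its 3 probe sets between −1.06 and −0.84, and Rfc1 followed at −0.68. The highest were Pola2 at 0.53 and Chaf1b, of the chromatin assembly factor, at 0.41. Of 60 further mitosis genes 52 were measured, with a median of 0.03 and 27 above 0 (51.9%). At least 1.5-fold higher was 1 (1.92%) and lower were 4 (7.69%), against the same background. Cep55, which acts at the final cut between daughter cells, was highest at 0.71 with probe sets at 0.81 and 0.61, followed by Cdca5 (sororin, which protects sister cohesion) at 0.56. Gtse1, a regulator of p53 and of microtubules, was lowest at −0.81, followed by Cenph, of the inner kinetochore, at −0.66. Spc25 and Ncapg, the others past 1.5-fold, were at −0.60 and −0.65. Ncapg is a subunit of condensin I, which compacts chromosomes; its partners Smc2, Ncapd2, Smc4 and Ncaph were at −0.48, −0.21, 0.03 and 0.03.

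**Figure D3:**
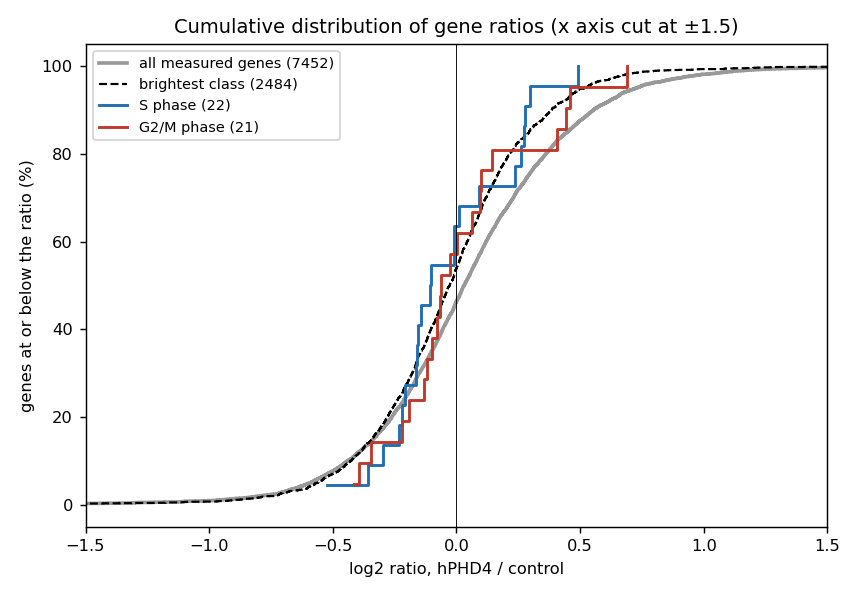
Share of genes (y axis, percent) at or below each log2 ratio (x axis) for S phase genes, G2/M phase genes, all 7452 measured genes and the 2484 of the brightest class. Both phase groups stay near the curve of the brightest class; the S phase curve ends at 0.49 and the G2/M curve at 0.69.

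Most of the genes farthest from 0 shared a few chromosomes, a pattern seen after the values were known. Over all measured genes, chromosome 19 had the highest median log2 ratio, 0.31 over 281 genes, and chromosomes 5 and 17 the lowest, −0.19 over 492 and −0.17 over 373. Of 153 measured cell cycle genes, the 46 and the 3 further lists together, 29 lie on these chromosomes. These 29 included 7 of the 10 genes past 1.5-fold (24.1% of the 29), and the other 124 included 3 (2.42%). Over all measured genes 18.2% passed 1.5-fold either way on these chromosomes and 13.4% on the others. The chromosomes were picked for their extreme medians in these same ratios. Chromosome 7 was not among them, though its median of 0.19 lay farther from 0 than that of chromosome 17. Of the 14 measured cell cycle genes on chromosome 7, 0 were at least 1.5-fold higher and 0 lower. They belong to the 124 of which 2.42% passed 1.5-fold. The share of all measured genes on chromosome 7 alone was not computed. Kif11 and Fen1, the highest of their phase groups, both lie on chromosome 19. So do Cep55, Cdca5, Pola2 and Incenp: all 6 measured cell cycle genes there were above 0, with a median of 0.55, where 78.6% of all measured genes on the chromosome were above 0.

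On chromosome 5, 14 of 15 measured cell cycle genes were below 0, with a median of −0.39, where 32.1% of all measured genes were above 0. They include Cenpa, Rfc3 and Mcm7 of the list as well as Dck, Rfc1, Rfc2, Rfc5, Pole and Ncapg; Mad1l1, of the spindle checkpoint, was the exception at 0.43. On chromosome 17, 7 of 8 were below 0, Ccnd3 and Cdkn1a lowest among them, where 70.8% of all measured genes were below 0. Kif11 lay 0.38 above the median of its chromosome and Fen1 0.18 above it, and Ccnd3 lay 0.51 below. Once each chromosome median was subtracted, 0 of the 46 genes passed 1.5-fold in either direction. Of all 153 cell cycle genes 6 did, against 10 before and 12.6% of all measured genes after the subtraction. They were Cdkn1a, Dck, Spc25, Gtse1, Cenph and Mad1l1, at −0.80, −0.76, −0.71, −0.70, −0.67 and 0.62 from the median of their chromosome. On chromosome 7, whose median was 0.19, 8 of the 14 measured cell cycle genes were above 0 and 6 below. Plk1, Ccne1 and Mki67 were among those below. Of all measured genes on that chromosome 72.0% were above 0. On chromosome 6, whose median was 0.00, 1 cell cycle gene was above 0, Ccnd2 at 0.49, and 7 were below. The part of chromosome position in these differences was not tested.

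**Figure D4:**
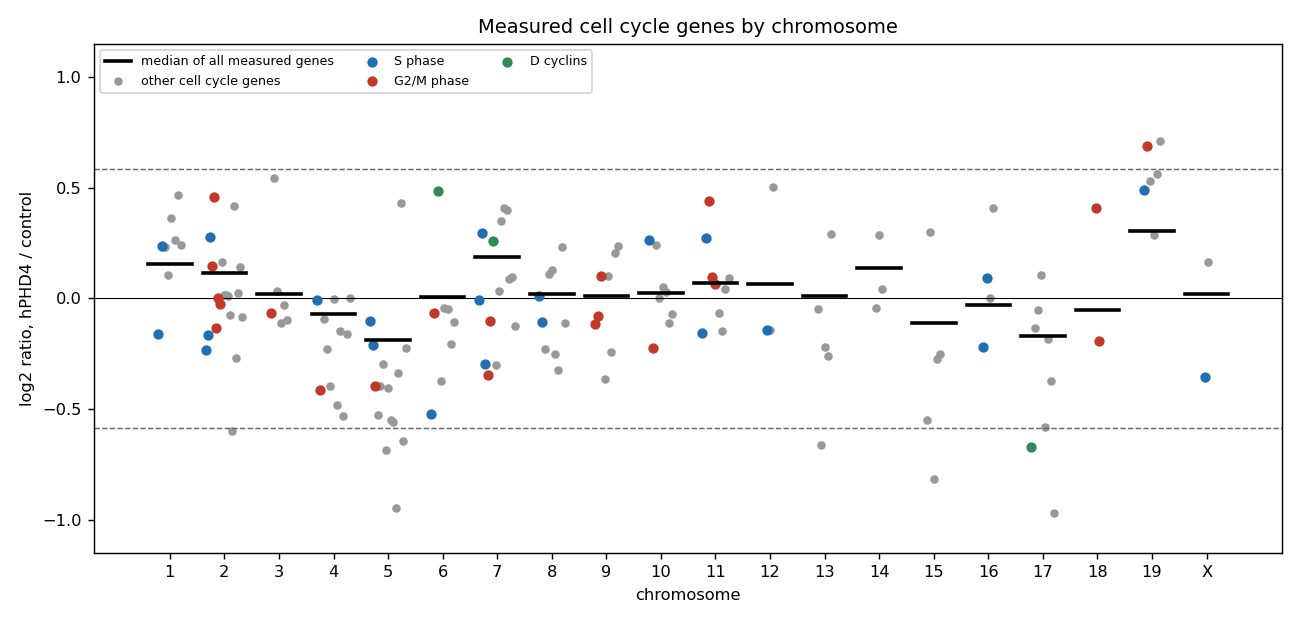
Log2 ratio (y axis) of the 153 measured cell cycle genes by chromosome (x axis): S phase (blue), G2/M phase (red), D cyclins (green) and the 3 further lists (grey), with the median of all measured genes on each chromosome as a black bar and dashed lines at 1.5-fold. All points of chromosome 19 lie above 0, and 14 of 15 on chromosome 5 and 7 of 8 on chromosome 17 lie below it.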

How the data were processed

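The authors deposited 1 value table with a log2 signal per probe set for each of the 2 arrays, which the submitters' processing notes credit to MAS5; the sources used here name no version or settings. Per the labels, 5 µg of total RNA went into each biotin-labelled target. As powers of 2 both columns have the same mean after trimming 2% at each end (500.2), so each array had been scaled to 1 target. Values were used as deposited.

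Symbols came from the platform annotation, chromosomes and promoters from RefSeq (GRCm38.p6): 12369 of 12393 genes matched by gene number. The floor was the 40th percentile of each array's non-control probe sets. Genes bright in 1 clone only were to be given as bounds; no gene of the list qualified. The number of arrays limits the precision. All 50 genes were accounted for. From the further lists the 2 highest and 2 lowest genes and the measured CDK inhibitors were named. Complex partners, Dut, replication genes below 0 by more than the probe set SD and genes past 1.5-fold were named after their values were seen. Genes and lists were chosen with earlier results of these data known. Alternatives varied scaling, chromosome medians, floor, probe set choice and fold. The steps were tested on simulated data (Python 3.11.15, numpy 2.4.6, pandas 2.3.3).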

Additional observations from a re-analysis of the deposited data

How the results depend on the processing

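List medians, counts and the ratios of the 46 genes were recomputed under 10 alternatives (Aurkb and Cdc25c under 9). The S phase median of −0.10 moved to −0.014 with the brightest probe set and to −0.0089 without _x_at and _s_at probe sets, and the median of the further mitosis genes (0.03) to −0.024 after subtraction of chromosome medians. The count of genes at least 1.5-fold higher (1) became 2 with the brightest probe set or without _x_at and _s_at probe sets, and 0 after subtraction of chromosome medians. The count at least 1.5-fold lower (1) became 2 with the floor at the 20th percentile and 0 after subtraction of chromosome medians. At 2-fold both counts were 0, and at a log2 ratio of 0.32 both were 6. The number above 0 ranged from 17 to 21. Of 458 recomputed gene ratios 5 moved by the probe set SD or more: Mcm2 (0.04 in 2 alternatives), Mcm3 (0.16), Mcm7 (0.23) and Fen1 (0.18). Choosing the brightest probe set could not move the 26 genes with 1 measured probe set. Of the 46 genes 9 changed sign at least once, Kif11 and the D cyclins not among them. The same was added after seeing the data for 29 named genes outside the list: 4 changed sign (Cdkn2c, Incenp, Ncaph and Prim2), and 11 of 287 ratios moved by the probe set SD or more, among them Spc25 to −0.18 with the floor at the 20th percentile and Bub3 to 0.02 with the brightest probe set. The median of chromosome 19 ranged from 0.06 to 0.36; those of chromosomes 5 and 17 ranged from −0.24 and −0.21 to 0, reached with dim signals raised to a common floor, which puts genes dim on both arrays at 0. Dim probe sets and the single array per clone limit the precision.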

Other observations

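Of the 88 probe sets of the list 10 were not measured in both clones. Tyms had all 3 of its own among them, with log2 signals (hPHD4 and control) of 4.40 and 1.33, 5.15 and 5.80, and 2.69 and 6.15; only the last lay above a floor, in the control clone. Cenpe, the kinesin that aligns chromosomes at metaphase, had 4.47 and 4.97 on its only probe set. The others belong to genes that were measured elsewhere: 2 to Ccnd2 and 1 each to Cdt1, Bub1, Kif23 and Top2a. The dim Kif23 probe set (2.63 and 4.95) had a log2 ratio of −2.32, farther from 0 than any measured probe set of the list, at signals under both floors.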
